A study of Mus musculus with 18 samples.

Results

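Focal adhesions are the sites at which a cell holds the matrix around it. Integrins in the membrane bind the matrix outside the cell, talin binds the integrin tail inside it, vinculin and zyxin couple the site to actin, and kinases with their scaffolds pass on the state of the site as a signal. In the growing lung such sites form in the epithelium and in the mesenchyme that surrounds it, and the focal adhesion kinase (FAK) and its phosphorylated form were used by the study as a readout of focal adhesions in lungs with defective planar cell polarity. RNA levels are described here for 10 genes of this machinery, of 23420 genes listed in the deposited tables. They are the kinases *Ptk2* (FAK) and *Src*, the pseudokinase *Ilk*, and the scaffolds *Pxn* (paxillin) and *Bcar1* (the Cas scaffold). The others are the parvin *Parva*, the talins *Tln1* and *Tln2*, *Vcl* (vinculin) and *Zyx* (zyxin). The 10 genes were chosen by name, and the rows of these 10 symbols were read from each of the 3 tables. All 10 passed the filter on low values in all 3 experiments. FAK is controlled largely by phosphorylation, which RNA does not show.

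Bulk RNA-seq of whole lungs from mouse embryos covers 3 experiments and 18 libraries, with 3 control and 3 mutant libraries in each experiment. In the *Vangl1/2* experiment (E12.5) the mutants were Vangl1-/-; Vangl2-/- and the controls Vangl1-/-, so that both groups lacked *Vangl1* and differed in *Vangl2*. In the *Dermo1Cre* experiment (E12.5) the mutants were Wnt5af/f; Dermo1Cre and the controls Wnt5af/+; Dermo1Cre, and in the *Sox9Cre* experiment (E13.5) the mutants were Wnt5af/f; Sox9Cre and the controls Wnt5af/+; Sox9Cre. Both groups of the latter experiments carried the Cre and at least 1 floxed allele of *Wnt5a*. *Dermo1Cre* is active in the mesenchyme and *Sox9Cre* in the epithelium, but the whole lung was sequenced, so that a change in 1 compartment is diluted by the other. In such samples fewer cells of a type and less RNA per cell cannot be told apart. *Vangl1* and *Vangl2* are core components of planar cell polarity, and *Wnt5a* is the ligand placed upstream of them.

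The deposited values are normalized counts, which are read counts per gene after division by the library's size factor, from libraries of 15945393 to 19814346 reads on genes. The number of embryos in a library is not given in the sources used here, and p-values measure the spread between these libraries, which may be technical. In the *Vangl1/2* experiment *Vangl2* had a mean of 339 ± 64.9 normalized counts in control and 85.3 ± 5.01 in mutant lungs (SD, n = 3 each), while *Wnt5a* was at 464 ± 30.8 and 327 ± 103 (SD, n = 3 each) in the *Dermo1Cre* experiment and at 451 ± 23.5 and 417 ± 48.0 (SD, n = 3 each) in the *Sox9Cre* experiment. *Wnt5a* overlapped between groups in both: the library labelled *Dermo1Cre* mutant replicate 2 had 436, within its controls (430 to 489), and *Sox9Cre* mutant replicates 1 and 3 had 442 and 448, within theirs (426 to 473). The log2 fold change of *Zyx* in *Dermo1Cre* mutants was −0.21 with all libraries. It was −0.15, −0.26 and −0.23 without mutant replicates 1, 2 and 3. Mutant replicates 1 and 3 had 317 and 230 for *Wnt5a*, and 2543 and 2854 for *Zyx*. All 13 markers of the epithelium and all 13 of the mesenchyme were tested in each experiment, and none of them was at 0. Each experiment was compared within its own table by limma on log2(normalized count + 1), with p-values adjusted over all genes tested by the Benjamini-Hochberg method. With 3 libraries against 3 the smallest two-sided exact permutation p of a single gene is 0.1.

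The controls of the *Vangl1/2* experiment did not lie together, which touches most results of that experiment. All tested genes were divided by exon length into 4 bins of equal size, and the log2 level of the bin of longest genes minus that of the bin of shortest genes, each against the mean of the 6 libraries, was −0.43 and −0.49 in control replicates 1 and 3, whereas control replicate 2 had 0.17 and the mutants had 0.22, 0.21 and 0.33. Control replicate 2 was thus nearer to the mutants than to the other controls in its balance of long and short genes, though below each mutant. The same difference stayed between −0.15 and 0.15 in the 12 libraries of the other experiments. Over all tested genes, 1 had an adjusted p under 0.05 with all 6 libraries and 6183 without control replicate 2. The members' differences in this experiment are therefore given with and without that library. It was singled out in these same data by its likeness to the mutants, so p-values without it are a description. Control replicates 1 and 3 are then the only controls. The difference between long and short genes was taken against the mean of the same experiment. It therefore does not show which of the controls are unusual. Without it 43.2% of all genes tested had an adjusted p under 0.05.

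Levels were compared between genes per kb of summed exon length (GENCODE release M21, GRCm38), a scale on which genes of different length can be set side by side. The sum takes in every annotated exon, so a gene with exons unused in these lungs is given a lower level. *Ilk*, the kinase-like partner of integrin tails, had the highest level in all 6 groups, with group means from 1113 to 1346 normalized counts per kb. *Tln1* (658 to 825 per kb) and *Zyx* (516 to 820 per kb) took places 2 and 3, and *Parva* took place 4 in all groups (392 to 485 per kb). A middle tier followed, in which *Src* (325 to 421 per kb), *Vcl* (309 to 360 per kb), *Bcar1* (243 to 366 per kb) and *Pxn* (260 to 330 per kb) changed places between groups. *Ptk2* was in place 9 of 10 in all 6 groups, at 184 to 225 per kb, and *Tln2* was in place 10, at 45.9 to 61.1 per kb. Of the 54 pairs of neighbours in these orders, 12 had overlapping ranges over libraries: *Zyx* with *Tln1* in the *Vangl1/2* groups, *Vcl* with *Src* in *Dermo1Cre* lungs and *Sox9Cre* mutants, and pairs among *Bcar1*, *Pxn* and *Vcl*. Set among all tested genes with a known length, *Ptk2* lay between percentiles 65.7 and 67.4 by its level per kb, *Ilk* between 94.97 and 96.3 and *Tln2* between 31.6 and 34.97.

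**Figure D1:**
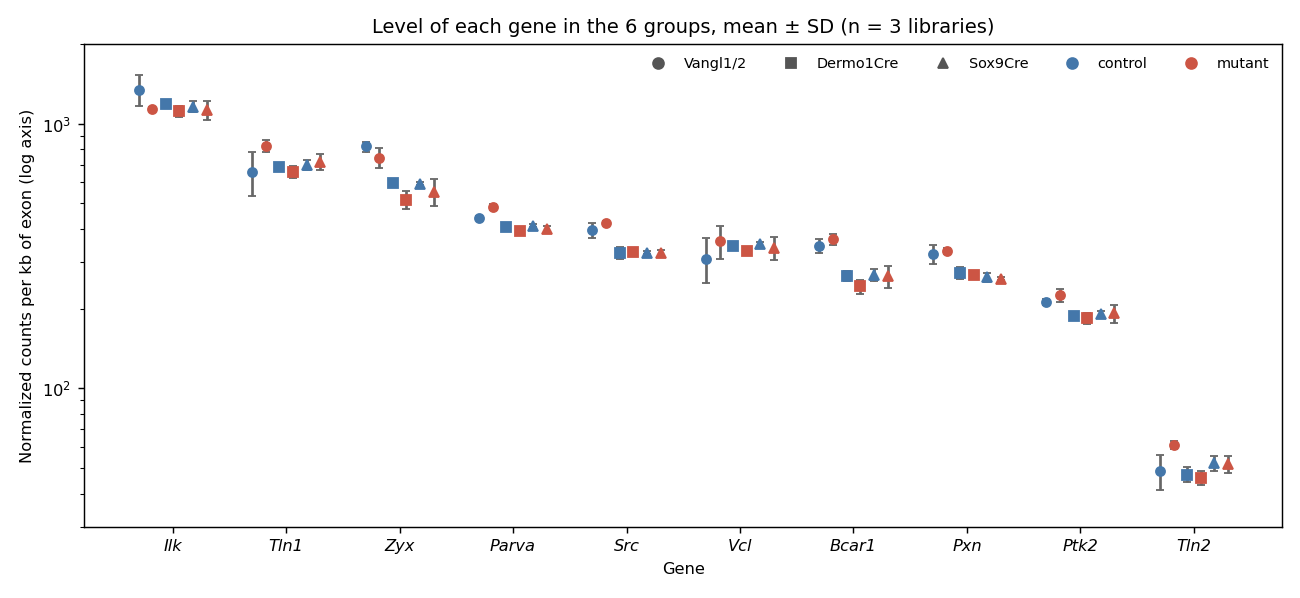
Level of each gene in normalized counts per kb of exon (log axis), as the mean ± SD of 3 libraries for the control (blue) and mutant (red) groups of the 3 experiments (circles, squares and triangles). *Ilk* lies highest at 1113 to 1346 per kb and *Tln2* lowest at 45.9 to 61.1 per kb, and the order of the genes is nearly the same in the 6 groups.

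The level of *Ilk* rests on reads that may not all be its own. On chromosome 7 (105736592 to 105742925, plus strand, GRCm38), 2106 of its exon bases (76.8%) lie opposite exons of *Taf10*, which codes for a subunit of the general transcription factor TFIID, and 355 bases lie opposite *Rrp8*. The sources used here do not say whether reads were counted by strand. *Taf10* had 2255, 1238 and 2090 normalized counts in the controls and 1357, 1379 and 1144 in the mutants of the *Vangl1/2* experiment. Control replicate 2 was the lowest of the controls for *Ilk* and for *Taf10*. In the libraries of the other experiments, which were scaled on their own, *Taf10* had 909 to 1176. For *Vcl* the shared length is 2090 bases (25.5%, opposite *Ap3m1*), for *Zyx* 236 bases (4.38%, opposite *Epha1*) and for *Tln1* 360 bases (3.67%, opposite *Creb3*). No exon of another gene overlaps those of *Ptk2*, *Src*, *Pxn*, *Bcar1*, *Parva* or *Tln2*.

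*Ptk2* codes for FAK, the kinase recruited to clustered integrins that phosphorylates itself and then binds Src. It lies on the minus strand of chromosome 15, from 73205102 to 73423280 (GRCm38), in 42 exon blocks. Within each experiment its control and mutant levels were near each other. In the *Vangl1/2* experiment the controls had 2438, 2556 and 2507 normalized counts and the mutants 2527, 2623 and 2818. The groups overlapped, and 2 of 3 mutants lay above the highest control. In *Dermo1Cre* lungs the controls had 2140, 2239 and 2253 and the mutants 2162, 2074 and 2282, and in *Sox9Cre* lungs the controls had 2189, 2326 and 2246 and the mutants 2055, 2365 and 2377. The mutants lay on both sides of the controls in these experiments. The differences were 6.12% (95% interval −7.54% to 21.8%, limma adjusted p = 0.559) in *Vangl1/2* mutants, −1.78% (−8.74% to 5.71%, limma adjusted p = 0.877) in *Dermo1Cre* mutants and 0.347% (−9.65% to 11.4%, limma adjusted p = 0.9999) in *Sox9Cre* mutants. None passed the test, and the intervals leave room for a change of up to 21.8% in the first experiment and of up to 11.4% in the others. The *Vangl1/2* difference was 7.30% without control replicate 2 (limma adjusted p = 0.278) and turned negative (log2 −0.23, limma adjusted p = 0.356) once each library's trend with exon length was removed. *Ptk2* has 11.8 kb of exon.

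The genes whose log2 levels followed *Ptk2* most closely over the 18 libraries, after the mean of each table was taken off, were *Wdr37* (Pearson r = 0.81), *Ccdc15* (r = 0.80) and *Invs* (r = 0.80), of 13980 genes tested in all tables. These points share libraries, size factors and the balance of long and short genes, and the values are a description.

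*Src* codes for the kinase that docks on phosphorylated FAK, and *Ilk* for the pseudokinase that joins integrins to parvin. *Src* lies on chromosome 2 (157418444 to 157471862, plus strand, GRCm38). It had 1741, 1835 and 1606 normalized counts in the *Vangl1/2* controls and 1819, 1876 and 1827 in the mutants, a difference of 6.69% with all libraries (limma adjusted p = 0.537) and 10.05% without control replicate 2 (limma adjusted p = 0.139). In *Dermo1Cre* and *Sox9Cre* lungs its control and mutant means differed least of the 10 genes, at 1424 ± 74.5 and 1425 ± 24.0 (SD, n = 3 each) in the former and 1420 ± 19.2 and 1423 ± 35.0 (SD, n = 3 each) in the latter. The 95% intervals of these differences ran from −7.24% to 8.23% and from −7.18% to 8.21%. *Ilk* had 3899, 3125 and 4057 normalized counts in the *Vangl1/2* controls and 3154, 3148 and 3052 in the mutants. Control replicates 1 and 3 were higher than all mutants, and control replicate 2 was among the mutants. The difference was −15.0% with all 6 libraries (limma adjusted p = 0.270) and −21.6% without control replicate 2 (limma adjusted p = 0.00149). With the length trend removed and all libraries kept it was −6.17% (limma adjusted p = 0.566). In *Dermo1Cre* lungs *Ilk* was at 3247 ± 59.7 in controls and 3054 ± 152 in mutants (SD, n = 3 each), a difference of −6.02% (95% interval −12.4% to 0.850%), and in *Sox9Cre* lungs at 3181 ± 149 and 3082 ± 254 (SD, n = 3 each). Neither difference passed the test.

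Paxillin, the product of *Pxn*, is the scaffold on which FAK, parvin and vinculin meet, and *Bcar1* codes for a scaffold that is phosphorylated by Src and stretched by force. *Pxn* lies on chromosome 5 (115506676 to 115555987, plus strand, GRCm38), *Bcar1* on chromosome 8 (111710474 to 111743809, minus strand) and *Parva* on chromosome 7 (112427505 to 112591692, plus strand). *Pxn* differed little between groups: its control and mutant means were 2633 ± 224 and 2708 ± 66.7 in *Vangl1/2* lungs, 2240 ± 124 and 2190 ± 39.2 in *Dermo1Cre* lungs, and 2152 ± 79.9 and 2131 ± 32.2 in *Sox9Cre* lungs (normalized counts, SD, n = 3 each). In *Vangl1/2* mutants the difference of *Pxn* was 3.06%, or 7.15% without control replicate 2 (limma adjusted p = 0.797 and 0.291). *Bcar1* had 1165, 1264 and 1187 normalized counts in the *Dermo1Cre* controls and 1025, 1144 and 1141 in the mutants. All 3 mutants lay below all 3 controls, by a narrow gap. The difference was −8.52% (95% interval −16.5% to 0.197%, limma unadjusted p = 0.0542, adjusted p = 0.505), which did not pass the test. In the *Vangl1/2* experiment *Bcar1* had 1596, 1663 and 1466 in the controls and 1712, 1707 and 1572 in the mutants, and in the *Sox9Cre* experiment 1211, 1281 and 1156 in the controls and 1282, 1263 and 1072 in the mutants. The groups overlapped in both. The *Vangl1/2* difference of *Bcar1* was 5.69%, or 8.67% without control replicate 2 (limma adjusted p = 0.614 and 0.234). *Parva*, which codes for the parvin that ties the ILK complex to actin, had 4381, 4550 and 4501 normalized counts in the *Vangl1/2* controls and 4988, 4767 and 5009 in the mutants. All mutants were above all controls, including control replicate 2, yet the difference of 9.90% did not pass the test (limma adjusted p = 0.338, or 0.0831 without control replicate 2). In *Dermo1Cre* and *Sox9Cre* lungs the mutant means of *Parva* differed from those of the controls by −4.07% and −2.56%, with overlapping groups.

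The upstream sequence of a gene could be read for 6 of the 10 members, in 8 windows of 250 bases before an annotated start (RefSeq, GRCm38.p6). The windows of *Vcl* and *Bcar1* are shown because no annotated exon lies in the window of *Vcl* or in the upstream one of *Bcar1*, and because *Vcl* alone holds a CArG box, the element bound by serum response factor, which controls many genes of the actin cytoskeleton. They are written 5′ to 3′ along the gene, *Vcl* on the plus strand (chr14:20929148-20929397) and *Bcar1* on the minus strand (chr8:111743850-111744099), with the CArG box, GC boxes (GGGCGG) and CCAAT boxes (CCAAT), searched on both strands, in capitals.
*Vcl*: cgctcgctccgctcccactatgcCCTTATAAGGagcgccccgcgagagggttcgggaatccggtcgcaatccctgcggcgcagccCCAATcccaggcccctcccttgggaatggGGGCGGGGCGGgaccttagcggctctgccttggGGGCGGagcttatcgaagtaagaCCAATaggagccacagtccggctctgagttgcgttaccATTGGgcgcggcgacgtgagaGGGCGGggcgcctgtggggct
*Bcar1*: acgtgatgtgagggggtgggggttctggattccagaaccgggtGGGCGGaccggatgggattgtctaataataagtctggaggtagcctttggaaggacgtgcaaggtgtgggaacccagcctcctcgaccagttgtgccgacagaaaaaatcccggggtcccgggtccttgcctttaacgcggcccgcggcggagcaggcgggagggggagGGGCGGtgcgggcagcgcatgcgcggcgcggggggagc
The CArG box of *Vcl* spans bases 227 to 218 before the start. A CArG box is present in 1.47% of all 32851 windows of this length, a GC box in 32.7% and a CCAAT box in 33.8%. *Vcl* held 4 GC boxes, of which a pair overlaps by a base, and 3 CCAAT boxes, and the *Bcar1* window held 2 GC boxes. The windows of *Src*, *Tln1*, *Zyx* and *Ilk* and the downstream one of *Bcar1* held between 0 and 3 GC boxes, with no CArG box. The letters GGAATG, which the TEAD factors can bind, were also searched, and of the 8 windows they are in that of *Vcl*, against 12.6% of all windows. These matches are letters in a window, not sites of binding.

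**Figure D2:**
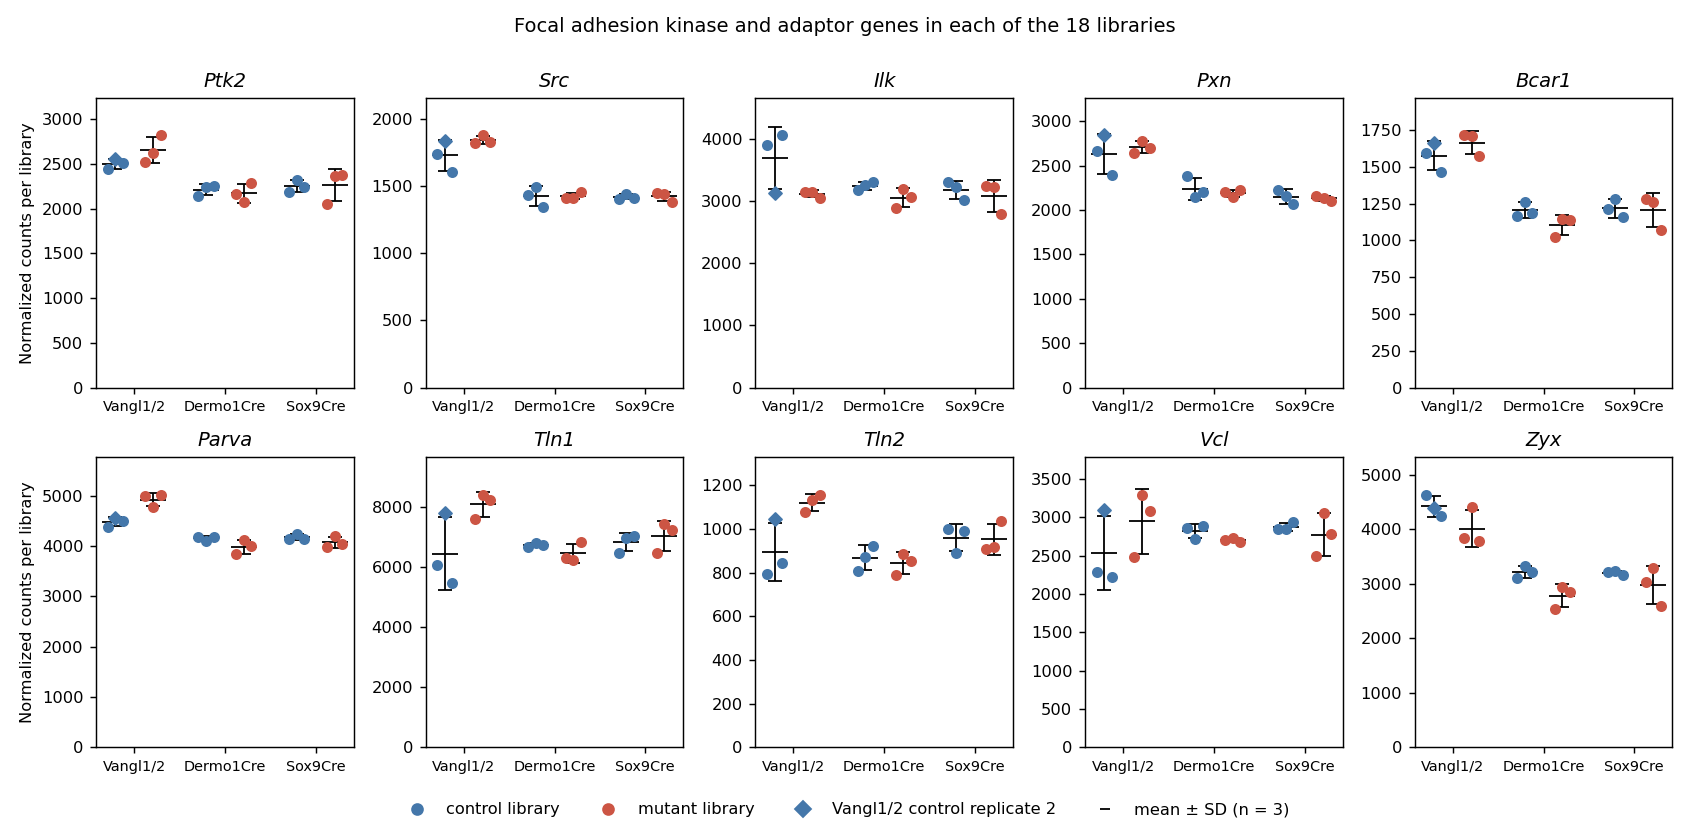
Normalized counts of each of the 10 genes in each library (linear axes from 0), for control (blue) and mutant (red) libraries of the 3 experiments, with the mean ± SD of 3 libraries in black and control replicate 2 of the *Vangl1/2* experiment as a diamond. For *Tln1*, *Vcl* and *Ilk* the diamond sits with the mutants, and *Zyx* of the *Dermo1Cre* mutants (2543 to 2940) lies below its controls (3107 to 3328).

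The talins open integrins to their ligands and carry the first load between integrin and actin. *Tln1*, the widely used form, lies on chromosome 4 (43531519 to 43562691, minus strand, GRCm38) with 9.80 kb of exon, and *Tln2* on chromosome 9 (67217087 to 67559703, minus strand) with 18.4 kb. *Tln1* had 6070, 7820 and 5458 normalized counts in the *Vangl1/2* controls and 7620, 8402 and 8244 in the mutants. Control replicate 2 was above mutant replicate 1, so that the groups overlapped. *Tln2* had 795, 1047 and 842 normalized counts in the controls and 1076, 1131 and 1155 in the mutants, with no overlap. The differences were 26.8% for *Tln1* (95% interval 1.54% to 58.3%, limma unadjusted p = 0.0390, adjusted p = 0.236) and 26.1% for *Tln2* (3.96% to 52.9%, limma unadjusted p = 0.0242, adjusted p = 0.233). They did not pass the test with all libraries. Without control replicate 2 both did, at 40.4% (limma adjusted p = 0.000618) and 36.9% (limma adjusted p = 0.00118), as did 43.2% of all genes tested. With the length trend removed and all 6 libraries kept, the difference was 6.19% for *Tln1* (limma adjusted p = 0.636) and −8.86% for *Tln2* (limma adjusted p = 0.488), so that the direction of *Tln2* turned.

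In the other experiments the talins were level. *Tln1* was at 6727 ± 60.9 and 6459 ± 326 normalized counts (SD, n = 3 each) in control and mutant *Dermo1Cre* lungs and at 6833 ± 302 and 7045 ± 503 in *Sox9Cre* lungs, and *Tln2* at 868 ± 56.6 and 842 ± 50.4 and at 960 ± 61.3 and 953 ± 70.4. The share of *Tln2* in all talin reads is a ratio within a library and does not depend on its size factor. It was 12.3% ± 0.967 in controls and 12.2% ± 0.271 in mutants of the *Vangl1/2* experiment, 11.4% ± 0.616 and 11.5% ± 0.774 in *Dermo1Cre* lungs and 12.3% ± 1.03 and 11.9% ± 0.846 in *Sox9Cre* lungs (SD, n = 3 each). The share differed between control and mutant groups by less than the spread between libraries in all 3 experiments. The exact two-sided permutation p of the log2 ratio (n = 3 against 3) was 1, 0.8 and 0.6 in the order of these experiments. Per kb of exon the share of *Tln2* was 6.44% to 6.99% over the 6 groups. The share was not corrected for the trend with exon length, in which the talins differ. With that trend removed, the log2 fold changes in *Vangl1/2* mutants were 0.087 for *Tln1* and −0.13 for *Tln2*.

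Vinculin, the product of *Vcl*, binds stretched talin and reinforces its link to actin. *Vcl* lies on chromosome 14 (20929398 to 21033676, plus strand, GRCm38). It had 2286, 3091 and 2227 normalized counts in the *Vangl1/2* controls and 2478, 3290 and 3080 in the mutants, the widest spread of the 10 genes within mutants of that experiment. Control replicate 2 again lay within the range of the mutants. The difference was 16.9% with all libraries (limma adjusted p = 0.405) and 29.8% without control replicate 2 (limma adjusted p = 0.0172). With the length trend removed it was 2.15% (limma adjusted p = 0.916). In *Dermo1Cre* lungs *Vcl* was at 2819 ± 93.0 and 2707 ± 24.0 normalized counts in controls and mutants, and in *Sox9Cre* lungs at 2875 ± 54.7 and 2776 ± 277 (SD, n = 3 each), differences of −3.97% (95% interval −9.77% to 2.21%) and −3.75% (−14.1% to 7.89%).

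Zyxin sits on actin bundles at mature adhesions and is recruited by tension. Its gene lies on chromosome 6 (42349630 to 42360213, plus strand, GRCm38). *Zyx* was the member with the smallest p-value in the *Dermo1Cre* and *Sox9Cre* experiments, and its mutant mean was below its control mean in all 3. In *Dermo1Cre* lungs the controls had 3107, 3328 and 3214 normalized counts and the mutants 2543, 2940 and 2854. All mutants were lower than all controls. The log2 fold change was −0.21 with a standard error of 0.06, or −13.7% (95% interval −21.1% to −5.68%, limma unadjusted p = 0.00437, adjusted p = 0.301, exact permutation p = 0.1). It did not pass the test after adjustment over 14277 genes. Over 15 alternatives the log2 fold change of *Zyx* stayed between −0.26 and −0.15, the unadjusted p between 0.000666 and 0.0229, and the adjusted p between 0.0743 (DESeq2) and 0.827.

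In the *Vangl1/2* experiment *Zyx* had 4629, 4385 and 4249 normalized counts in the controls and 3840, 4407 and 3785 in the mutants, and in the *Sox9Cre* experiment 3216, 3227 and 3161 in the controls and 3034, 3299 and 2600 in the mutants. In each of these, 2 of 3 mutants lay below the lowest control. The differences were −9.43% (95% interval −22.4% to 5.70%, limma adjusted p = 0.388) and −7.43% (−18.6% to 5.29%, limma adjusted p = 0.9999). The *Sox9Cre* value rests on mutant replicate 3: its log2 fold change was −0.11 with all libraries, −0.017 without mutant replicate 3 and −0.19 without mutant replicate 2. The intervals of all 3 experiments overlap widely. For *Zyx* in *Vangl1/2* lungs the exclusion of control replicate 2 made little change (−9.78%, limma adjusted p = 0.175). *Zyx* has 5.39 kb of exon, and its log2 fold change there was −0.14 (95% interval −0.37 to 0.080). The bin of genes between 4.46 and 6.85 kb had a median of 0.072, which lies within that interval.

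**Figure D3:**
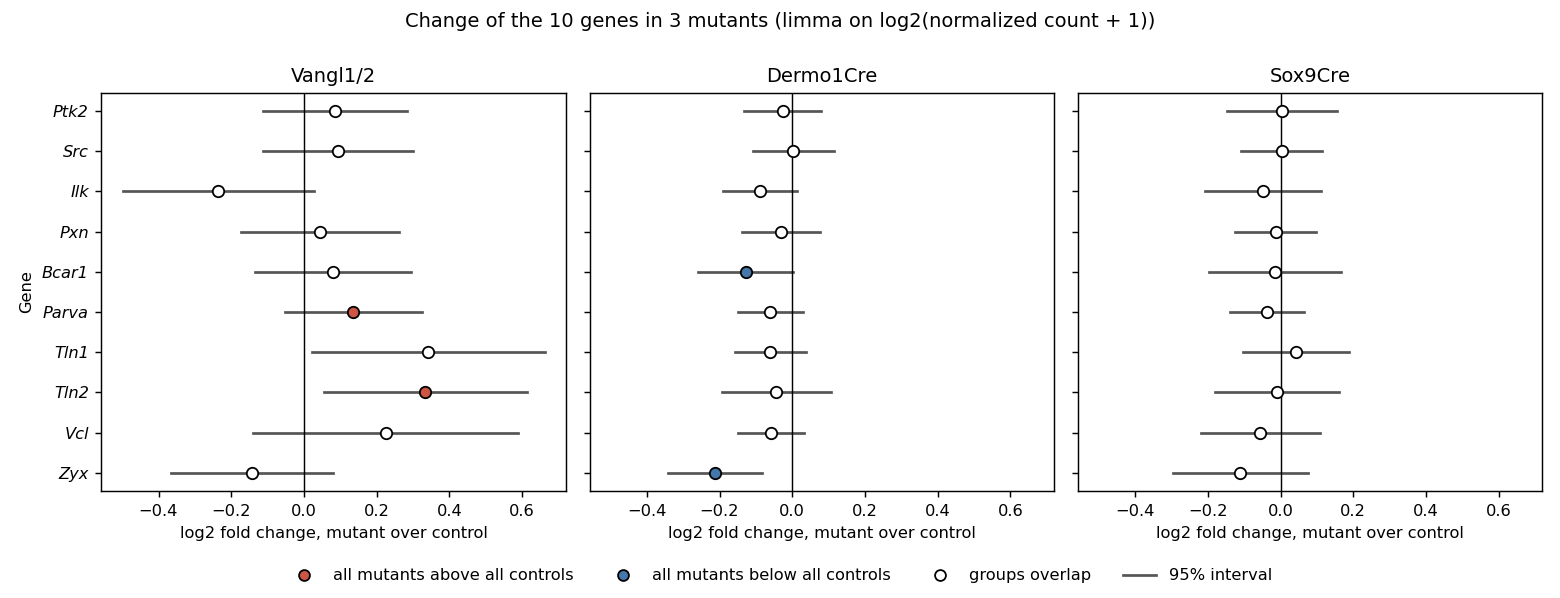
Log2 fold change of each gene (mutant over control, limma on log2(normalized count + 1), 3 against 3 libraries) with its 95% interval in the 3 experiments; red and blue points mark genes whose mutants all lay above or below all controls. *Parva* and *Tln2* are red in *Vangl1/2* lungs, *Bcar1* and *Zyx* are blue in *Dermo1Cre* lungs, and all 10 intervals of *Sox9Cre* lungs include 0.

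No member had an adjusted p under 0.05 in any experiment with all libraries. In the *Vangl1/2* experiment that threshold was passed by 0.00699% of 14303 genes tested, in the *Dermo1Cre* experiment by 0.014% of 14277, and in the *Sox9Cre* experiment by 0% of 14293 (limma; 557 genes had an unadjusted p under 0.05 there, and DESeq2 called 9). At an unadjusted p under 0.05, 2 members were higher in *Vangl1/2* mutants (*Tln1* and *Tln2*) and 0 were lower, against 12% and 8.56% of all genes. In *Dermo1Cre* mutants 0 members were higher and 1 was lower (*Zyx*), against 5.42% and 4.76% of all genes, and in *Sox9Cre* mutants 0 members were higher or lower, against 1.08% and 2.81%. Groups did not overlap for 2 members that were higher in *Vangl1/2* mutants (*Parva* and *Tln2*) and for 0 that were lower, where 13.6% and 8.68% of all genes did so. The same count was 0 higher and 2 lower (*Bcar1* and *Zyx*) in *Dermo1Cre* mutants, against 7.65% and 7.92%, and 0 in *Sox9Cre* mutants, against 4.42% and 4.36%. With 1 gene worth 10% of the members, these counts lie near the background shares. In *Dermo1Cre* mutants, removing the length trend with a block on the replicate number gave 4 lower members, against 4.17% of all genes. In that setting 0 members had an adjusted p under 0.05 (limma). The median log2 fold change of the members was 0.090, −0.059 and −0.014 in *Vangl1/2*, *Dermo1Cre* and *Sox9Cre* mutants, and that of all genes tested −0.0093, 0.00071 and 0.0013.

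The members' differences in the *Vangl1/2* experiment are set here beside those of all genes of like exon length, as a description. From the shortest to the longest of the 4 bins, the median log2 fold change went from −0.24 over −0.069 and 0.072 to 0.25. *Ilk*, the shortest member at 2.74 kb, had −0.24, and *Tln2*, the longest at 18.4 kb, had 0.33. *Ptk2* (11.8 kb), *Parva* (10.2 kb) and *Pxn* (8.20 kb) are in the longest bin as well, and their log2 fold changes of 0.09, 0.14 and 0.04 were below its median of 0.25. *Src* (4.37 kb) had 0.09 in a bin with a median of −0.069, and *Zyx* had −0.14 in one with a median of 0.072, so that the members did not all follow their length bins. Control replicate 2 was within the range of the mutants for 7 of 10 members. Without it 4 members had an adjusted p under 0.05, *Tln1*, *Tln2* and *Vcl* higher and *Ilk* lower, where 43.2% of all genes did so (limma). With the length trend removed 0 of 10 members had an unadjusted p under 0.05, and the differences of *Src*, *Bcar1*, *Pxn*, *Parva* and *Zyx* were 7.25%, 5.31%, −9.92%, −8.73% and −13.1%. Whether the balance of long and short genes came from the lungs or from the RNA was not tested.

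**Figure D4:**
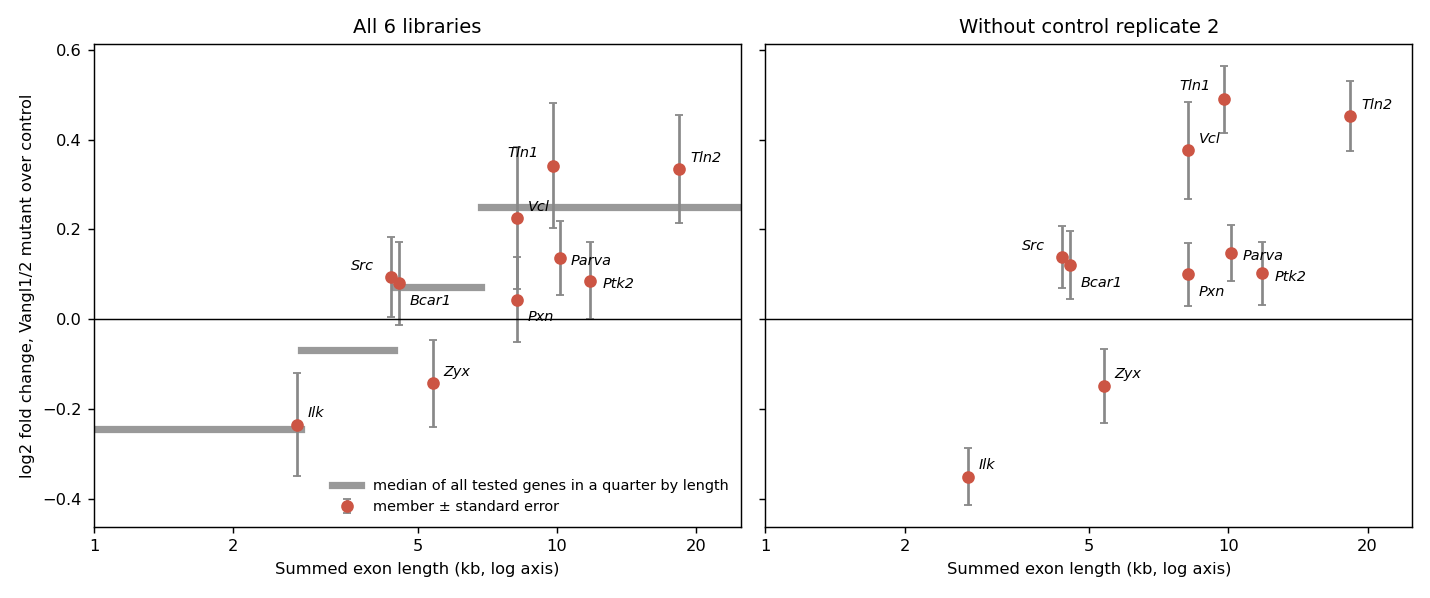
Log2 fold change of the 10 genes (± standard error, limma) in *Vangl1/2* mutants against summed exon length in kb (log axis), with all 6 libraries on the left and without control replicate 2 on the right; grey bars on the left give the median of all tested genes in each of 4 length bins, the outer bars running to the edge of the axis. *Ilk* at 2.74 kb had −0.24 and *Tln2* at 18.4 kb had 0.33, beside medians of −0.24 and 0.25 in their bins.

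Whether a gene differed more in one mutant than in another was tested in 1 limma fit over the 18 libraries, with each mutant set against its own controls, for 13980 genes (a fit added after the data were seen). *Tln1* differed by 0.40 on the log2 scale between *Vangl1/2* and *Dermo1Cre* mutants (95% interval 0.11 to 0.70, limma adjusted p = 0.252), *Tln2* by 0.38 (0.097 to 0.66, limma adjusted p = 0.252) and *Parva* by 0.20 (0.051 to 0.34, limma adjusted p = 0.252). Against *Sox9Cre* mutants the differences were 0.30, 0.34 and 0.17, with limma adjusted p-values of 0.193, 0.160 and 0.161. None of the 30 differences passed the test, and these hold all 6 *Vangl1/2* libraries. The fit used 1 variance per gene over all libraries, though the separate standard errors of *Tln1* were 0.14, 0.044 and 0.064 in *Vangl1/2*, *Dermo1Cre* and *Sox9Cre* lungs. For such a gene the intervals are too narrow against *Vangl1/2* mutants and too wide between the other mutants. Between *Dermo1Cre* and *Sox9Cre* mutants the largest of the 10 differences was −0.11 (*Bcar1*, 95% interval −0.35 to 0.12).

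Within groups some members varied together and others in opposite directions. The coefficient of variation of a member over 3 libraries had a median of 7.59% in *Vangl1/2* controls and 4.20% in the mutants, 3.36% and 4.89% in *Dermo1Cre* lungs and 3.38% and 7.72% in *Sox9Cre* lungs. *Zyx* varied most among *Sox9Cre* mutants (11.9%), with the low value of 2600 in replicate 3, in which *Ilk* (2789) and *Bcar1* (1072) were at their lowest too. After the mean of each group was taken off, the 12 libraries of the *Dermo1Cre* and *Sox9Cre* experiments gave Pearson r = 0.90 for *Ptk2* with *Tln1*, 0.88 for *Ilk* with *Bcar1*, 0.88 for *Bcar1* with *Zyx* and 0.86 for *Ilk* with *Zyx*. Other pairs ran the opposite way, down to −0.54 for *Src* with *Tln2*. The median over the 45 pairs was 0.083. In the 6 *Vangl1/2* libraries the median was 0.36, with r from −0.96 for *Ilk* with *Tln1* to 0.995 for *Src* with *Pxn*. Over all 18 libraries it was 0.19. These correlations are a description over libraries that share size factors and gene length effects.

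Related genes of focal adhesions were counted beside the members. Of 63 such genes 62 were tested: 12 relatives and partners of the kinases, 21 of the scaffolds, and 29 of 30 integrin activators and links to actin. No companion had an adjusted p under 0.05 in any experiment (limma). At an unadjusted p under 0.05, 13 were higher and 2 lower in *Vangl1/2* mutants, 1 higher and 10 lower in *Dermo1Cre* mutants, and 0 higher and 4 lower in *Sox9Cre* mutants. The shares of all genes were 12% and 8.56%, 5.42% and 4.76%, and 1.08% and 2.81% in the same order. The companions' median log2 fold changes were 0.11, −0.056 and −0.0081. In *Dermo1Cre* lungs 9 of the 10 lower genes were among the 29 integrin activators and actin links, a list whose median was −0.092. The count of companions in *Vangl1/2* mutants, 15 in all, was 34 without control replicate 2, while the share of all genes past the same threshold went from 20.5% to 50.6%.

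Of the companions, 9 close relatives and partners of members are given with values. *Ptk2b*, which codes for Pyk2, the relative of FAK, was at 32.7 to 116 normalized counts over the 3 control means, and in *Sox9Cre* lungs it was at 116 ± 22.8 in controls and 62.3 ± 17.7 in mutants (SD, n = 3 each), with no overlap and a limma adjusted p of 0.9999. *Parvb*, the relative of *Parva*, was at 784 ± 145 and 1019 ± 86.3 in control and mutant *Vangl1/2* lungs, and at 957 ± 11.1 and 823 ± 26.7 in *Sox9Cre* lungs (SD, n = 3 each), apart in both, in opposite directions, with limma adjusted p-values of 0.233 and 0.9999. The difference between these effects was 0.61 on the log2 scale (95% interval 0.30 to 0.92) in the fit over the 18 libraries, with an adjusted p of 0.157 by limma. *Tgfb1i1*, which codes for Hic-5, a paxillin relative abundant in smooth muscle, was at 1335 ± 133 and 1072 ± 158 in *Dermo1Cre* lungs (SD, n = 3 each), with no overlap and a limma adjusted p of 0.375. *Lpp*, the relative of *Zyx*, had a higher mean in each set of mutants, with overlapping groups in all 3 experiments. Its log2 fold changes were 0.83, 0.12 and 0.08, against −0.14, −0.21 and −0.11 for *Zyx*. Its limma adjusted p-values were 0.233, 0.490 and 0.9999. Without control replicate 2 the *Vangl1/2* value of *Lpp* was 1.21 (limma adjusted p = 6.61e-05), and with the length trend removed and all libraries kept it was 0.30 (limma adjusted p = 0.357). *Tns1*, a tensin, had 0.51, −0.09 and −0.02 on the same scale, the first of which was 0.77 without control replicate 2 (limma adjusted p = 0.000503) and 0.085 with the length trend removed (limma adjusted p = 0.745). The partners *Lims1* (PINCH), *Fermt2* (kindlin), *Crk* and the Cas relative *Nedd9* stayed between −0.09 and 0.11 in all experiments with all libraries.

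**Figure D5:**
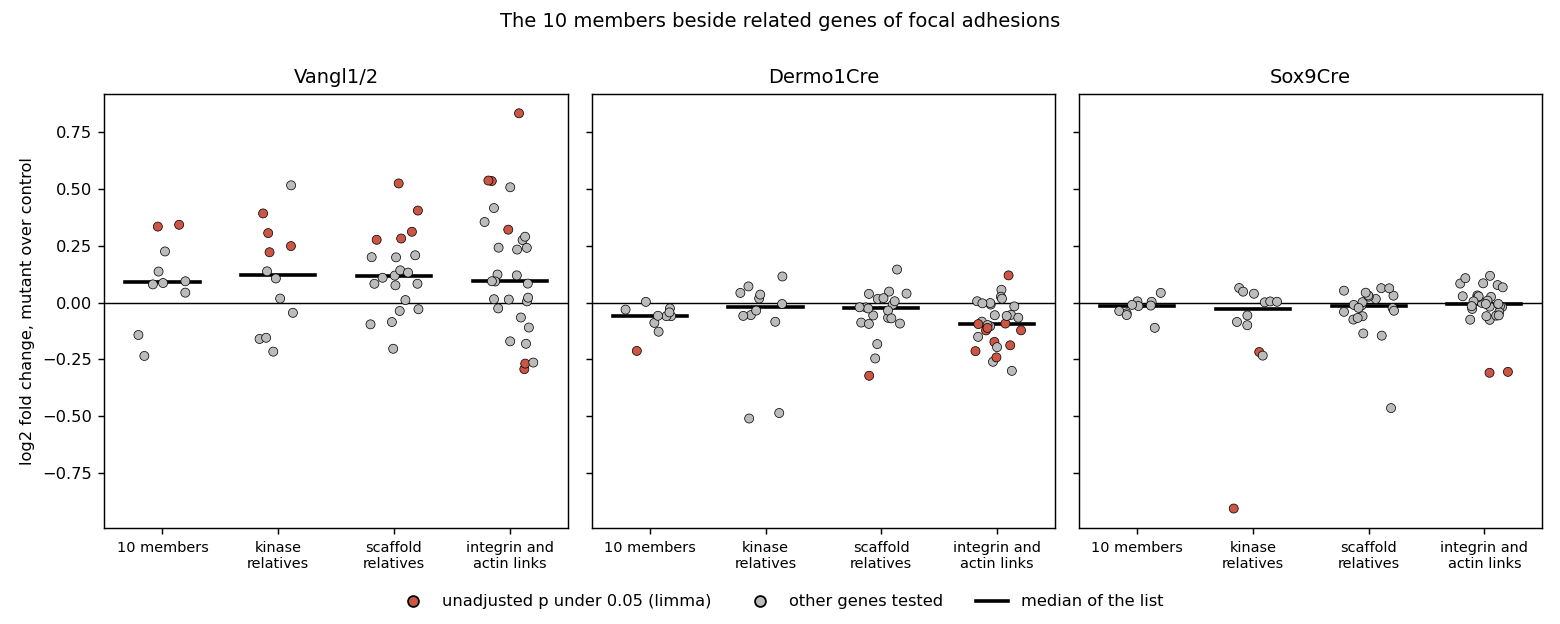
Log2 fold change (mutant over control) of the 10 genes and of 62 related genes in 3 lists, in the 3 experiments, each point a gene, red where the unadjusted limma p was under 0.05, with the median of each list as a black line. In *Dermo1Cre* lungs 9 of 29 integrin activators and actin links are red and below 0, and 1 is red and above 0.

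Markers of cell types moved beside the members. In *Dermo1Cre* lungs 7 of 9 smooth muscle markers were lower at an unadjusted p under 0.05, and their summed level was 13913 to 18654 normalized counts in the controls and 9791 to 14621 in the mutants. In the same experiment 6 of 13 epithelial markers were lower (sums of 20229 to 20930 and of 18802 to 19324) and 9 of 10 neural markers were higher (1026 to 1491 and 1747 to 3632). In *Vangl1/2* lungs 4 of 9 smooth muscle markers were lower (11214 to 15047 in controls and 9228 to 12522 in mutants), and 3 of 4 mesothelial markers tested were higher. In *Sox9Cre* lungs 1 of 9 smooth muscle markers was lower and 12 of 14 cardiomyocyte markers were lower (6119 to 20820 in controls and 1157 to 6839 in mutants). The 6839 of mutant replicate 1 lay within the controls. Cardiomyocyte sums also varied widely within *Dermo1Cre* controls (1503 to 23105) and *Vangl1/2* mutants (664 to 8693). In those experiments 0 cardiomyocyte markers passed in either direction. The summed mesenchymal markers of the *Vangl1/2* controls were 80860, 137231 and 62841 in replicates 1, 2 and 3, and those of the mutants ran from 100363 to 127864. In the libraries of the other experiments these sums ran from 97884 to 137689. In *Sox9Cre* lungs 3 of 5 mesothelial markers were lower. Of the endothelial, macrophage, platelet and erythroid lists, 0 to 3 markers passed the unadjusted threshold in either direction in each experiment. The erythroid list had 2 markers at 0 in all libraries, and every marker of the other lists was above 0 in some library. The part of these shifts in the values of *Zyx* and the other members was not tested.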

How the data were processed

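Bulk RNA-seq of whole embryonic mouse lungs, 3 control and 3 mutant libraries in each of 3 experiments, was analysed from 3 tables. The deposited signal is, for each gene and library, the read count divided by a size factor (normalized count). According to the submitters' processing notes the authors used Trim Galore, HISAT2, featureCounts and DESeq2 on mm10, with versions and strand setting not given in the sources used here. Each value was a whole read times a fixed step (100% within 0.01 reads), which gave library totals of 15945393 to 19814346 reads and size factors of 0.952 to 1.07. Columns with the authors' own fold changes and p-values were not used, and 27 gene names that a spreadsheet had turned into dates could not be read.

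The members, the companion genes and the marker lists were chosen with earlier results of these data known. Genes named are the 10 members and 9 companions, the closest relative or partner of each, together with the targeted genes and genes that overlap a member, and the 3 genes most correlated with *Ptk2*. Values were taken as log2(normalized count + 1) for genes with at least 10 in 3 or more of 6 libraries, and each mutant was compared with its controls by limma 3.58.1 with a trended prior (R 4.3.3) over all genes, with Benjamini-Hochberg adjustment, a threshold of 0.05 and 95% intervals. Fold changes are on that scale. The exact permutation tests over libraries were two-sided. The scripts were tested on simulated data. Alternatives were edgeR 4.0.16 and DESeq2 1.42.0 on the recovered reads, pseudocounts of 0.5 and 5, no filter and a minimum of 50, a block on the replicate number, leaving out each library in turn, and removal of each library's trend with exon length. The fit of differences between experiments was added after the data were seen. Exon lengths and positions come from GENCODE M21 (GRCm38), with a length for 98.3% of names, and promoter windows from RefSeq (GRCm38.p6). Promoter windows of *Ptk2*, *Pxn*, *Parva* and *Tln2* were not analysed here.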

Additional observations from a re-analysis of the deposited data

Results flagged for a closer look

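*Parvb*, the relative of *Parva*, was higher in all 3 *Vangl1/2* mutant libraries than in all their controls (log2 fold change 0.392) and lower in all 3 *Sox9Cre* mutant libraries than in all theirs (−0.218). The fit over the 18 libraries gave a difference of 0.61 between these effects, with an adjusted p of 0.157 by limma, which did not pass the threshold. In *Vangl1/2* mutants the value of *Parvb* was 0.50 without control replicate 2 (limma adjusted p = 0.00894) and 0.40 with the length trend removed (limma adjusted p = 0.355).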

How the results depend on the processing

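The number of genes with an adjusted p under 0.05 was 1 in *Vangl1/2* mutants, 20 with DESeq2, 0 with the replicate block and 0 to 6183 when 1 library was left out, with 6183 without control replicate 2. In *Dermo1Cre* mutants it was 2, then 100 with DESeq2, 16 with the replicate block, 7 with the length trend removed and the block, and 0 to 54 with a library left out (54 without mutant replicate 1). In *Sox9Cre* mutants it was 0, then 9 with DESeq2, 1 with the length trend removed and the block, and 0 to 13 with a library left out (13 without mutant replicate 1). Members at an unadjusted p under 0.05 numbered 2 in *Vangl1/2* mutants, where 20.5% of all genes passed. They numbered 1 with edgeR (20.2% of all genes), 0 with the length trend removed (13.9%) and 1 with that and the block (16.8%). With a library left out they numbered 0 to 5, and 5.36% to 50.6% of all genes passed, both highest without control replicate 2. In *Dermo1Cre* mutants they numbered 1 (10.2% of all genes), 2 with edgeR (10.2%), 2 with the block (10.4%) and 2 with the length trend removed (9.28%). With both the block and the trend removed they numbered 4 (9.07%), all lower, and 0 members had an adjusted p under 0.05. They numbered 1 to 3 with a library left out (5.70% to 13.3%). *Sox9Cre* mutants had 0 (3.90%), with 0 to 1 when a library was left out (2.20% to 10.4%). Companions numbered 15, 11 and 4 in these experiments and 8 in *Vangl1/2* mutants with the length trend removed. With a library left out they numbered 3 to 34, 7 to 13 and 2 to 9. The shares of all genes in the same settings are those given for the members.

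In *Vangl1/2* mutants the log2 fold changes of *Ptk2* (−0.23), *Pxn* (−0.15), *Parva* (−0.13) and *Tln2* (−0.13) turned negative with the length trend removed, with or without the block. *Src* turned in *Dermo1Cre* mutants with edgeR (−0.000263) and in *Sox9Cre* mutants with the length trend removed, with or without the block (−0.00115). Leaving out 1 library turned the sign of *Pxn* (−0.0232 to 0.0996) in *Vangl1/2* mutants. It turned *Ptk2* (−0.0618 to 0.00698), *Src* (−0.0377 to 0.0375), *Pxn* (−0.0624 to 0.013) and *Tln2* (−0.0932 to 0.00376) in *Dermo1Cre* mutants. In *Sox9Cre* mutants it turned *Ptk2* (−0.0312 to 0.0737), *Src* (−0.00813 to 0.0237), *Ilk* (−0.0854 to 0.0228), *Pxn* (−0.0417 to 0.0117), *Bcar1* (−0.0622 to 0.0668), *Tln2* (−0.0706 to 0.022) and *Vcl* (−0.126 to 0.0187). The log2 ratio of *Tln2* to *Tln1* ran from −0.0523 to 0.0653, −0.0456 to 0.0609 and −0.123 to 0.0151. The cause of these turns was not tested. Of 150 member values in each experiment, 137, 143 and 132 kept their direction and side of the threshold in *Vangl1/2*, *Dermo1Cre* and *Sox9Cre* mutants. Libraries with the same replicate number deviated together with r of 0.303, 0.049 and 0.013 in *Vangl1/2* lungs, 0.073, −0.073 and −0.223 in *Dermo1Cre* lungs and 0.053, 0.132 and −0.120 in *Sox9Cre* lungs, so the numbers were not taken to pair the libraries. With 3 libraries a group, the intervals show how wide a difference remains possible for a member that did not pass the test.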
